A study of Mus musculus with 4 samples.

Results

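Receptors and ligands of nerve signalling were described in the RNA of 46C cells, a line of mouse embryonic stem cells, as the genes whose pathway text in the authors' deposited table names KEGG's neuroactive ligand-receptor interaction. The table holds 39 such genes. Trh, which encodes thyrotropin-releasing hormone, was left out, and 38 genes remained of the 1593 in the table. Pdyn, another peptide precursor set aside by the same rule, is listed in the table but without that pathway. The 38 genes are 37 receptors, namely 12 subunits of ligand-gated channels and 25 G protein-coupled receptors, and 1 ligand, the peptide precursor Npb.

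Every library came from cells grown 24 h in medium with serum and PD0325901 at 1 µM, which inhibits the kinase MEK. For the PD group (2 libraries) the labels name no further treatment and do not say whether a vehicle was added. The PC group (2 libraries) had CID755673 added, which inhibits protein kinase D, at a dose not given in the sources used here. Both groups thus carried the MEK inhibitor, and cells without it are not analysed here. 46C is 1 line, with a green fluorescent reporter at Sox1. The labels do not give the cultures behind the libraries, and the spread that p-values rest on here may be technical.

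Ligand-gated channels open within milliseconds when a transmitter binds and let ions cross the membrane, whereas G protein-coupled receptors act through G proteins that raise or lower second messengers such as cyclic AMP and calcium. Gs stimulates adenylyl cyclase, Gi and Go inhibit it, and Gq releases calcium through phospholipase C. KEGG groups these receptors by their ligands, and many are also made outside the nervous system: P2X channels respond to extracellular ATP in immune and epithelial cells, and receptors for lysophosphatidic acid and sphingosine 1-phosphate are found in many cell types.

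The promoters of 5 genes are shown first because the clearest changes below concern them: each passed the test, had a mean of at least 100 normalized reads in a group, and has a sequence in RefSeq's promoter table (build GRCm38.p6), which held 30 of the 38 genes. P2rx7 and P2rx4 lie 16.1 kb apart on the same strand of chromosome 5 (GENCODE M21, GRCm38) and changed in opposite directions, whereas the other 3 genes fell. Each window runs 5′ to 3′ on the strand of its gene, from 250 bases before the start site to 50 after it. Capitals mark matches, on either strand, to the GC box (GGGCGG), the CCAAT box (the letters of its name), the TATA box (TATAAA), the E-box (CACGTG), the cyclic AMP response element or CRE (TGACGTCA), the AP-1 motif (TGANTCA), the nuclear receptor half-site (AGGTCA) and the octamer (ATGCAAAT), none of which contains another. Positions count from the start site.
P2rx7, chr5:122643677-122643976, plus strand: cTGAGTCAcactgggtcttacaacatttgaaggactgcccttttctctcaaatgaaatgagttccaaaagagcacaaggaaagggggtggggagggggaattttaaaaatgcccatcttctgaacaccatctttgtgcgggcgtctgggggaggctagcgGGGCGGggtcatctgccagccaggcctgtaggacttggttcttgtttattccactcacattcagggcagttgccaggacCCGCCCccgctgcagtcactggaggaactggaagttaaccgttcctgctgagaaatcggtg
P2rx4, chr5:122707294-122707593, plus strand: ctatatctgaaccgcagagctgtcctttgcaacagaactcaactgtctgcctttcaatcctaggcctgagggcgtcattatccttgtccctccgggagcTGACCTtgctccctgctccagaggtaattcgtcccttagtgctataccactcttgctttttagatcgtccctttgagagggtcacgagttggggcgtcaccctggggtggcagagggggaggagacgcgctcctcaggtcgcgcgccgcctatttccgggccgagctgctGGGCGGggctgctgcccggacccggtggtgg
Crhr2, chr6:55132967-55133266, minus strand: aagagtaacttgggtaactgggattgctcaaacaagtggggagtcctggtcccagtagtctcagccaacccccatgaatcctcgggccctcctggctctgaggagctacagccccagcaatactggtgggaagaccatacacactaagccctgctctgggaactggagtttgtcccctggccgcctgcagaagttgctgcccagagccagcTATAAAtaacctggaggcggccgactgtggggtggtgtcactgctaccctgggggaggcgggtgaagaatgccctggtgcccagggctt
Adcyap1r1, chr6:55451728-55452027, plus strand: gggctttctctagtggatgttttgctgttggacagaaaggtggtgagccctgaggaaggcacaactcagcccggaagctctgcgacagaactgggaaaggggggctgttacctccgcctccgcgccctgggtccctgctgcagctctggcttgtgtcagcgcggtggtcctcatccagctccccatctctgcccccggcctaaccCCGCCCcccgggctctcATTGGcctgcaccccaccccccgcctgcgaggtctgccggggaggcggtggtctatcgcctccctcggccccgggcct
Lpar6, chr14:73237641-73237940, plus strand: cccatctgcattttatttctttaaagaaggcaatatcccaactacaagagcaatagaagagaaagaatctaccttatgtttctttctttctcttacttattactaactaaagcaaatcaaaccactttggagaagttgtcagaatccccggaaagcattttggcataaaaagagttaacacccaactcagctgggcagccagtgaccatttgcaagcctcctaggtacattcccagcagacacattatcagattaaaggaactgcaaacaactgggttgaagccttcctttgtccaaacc

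The P2rx7 window held an AP-1 match at -249 and GC boxes at -90 and -11, and the P2rx4 window a half-site match at -151 and a GC box at 20. Crhr2 had a TATA match at -39, Adcyap1r1 had a GC box at -45 and a CCAAT match at -28, and the Lpar6 window held none of these letters. GC boxes were found in 14 of the 30 gene windows (46.7%) and in 35.7% of all 32851 windows of this length, and TATA matches in 6 (20%) against 13.6%. CCAAT was in 11 (36.7%) against 37.4%, AP-1 in 3 (10%) against 7.81%, the half-site in 4 (13.3%) against 16.3%, the E-box in 1 (3.33%) against 7.15%, the octamer in 1 (3.33%) against 1.74%, and the CRE in 0 against 1.79%. Of the 30 windows, 24 were of genes with lower values in PC, and these held all 6 TATA, all 3 AP-1 and 10 of the 11 CCAAT matches. GC boxes were in 10 of these 24 and in 4 of the 6 windows of genes with higher values, and the half-site in 2 of each set. The 1 E-box and the 1 octamer were in windows of genes with higher values. These splits were not tested. The 6 windows of genes with higher values had a median GC content of 65.6%, with a range of 50% to 79.3%, and the 24 of genes with lower values 54.8%, with a range of 38.3% to 67.3%, beside 52.7% over all windows. A match describes letters and is not a binding site.

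With CID755673, 10 of the 38 genes had higher and 28 lower values. Transcripts of the ATP-gated channel P2rx7 fell from 1740.0 ± 186.0 to 618.0 ± 56.3 normalized reads (SD, n = 2), while those of its neighbour P2rx4 rose from 400.8 ± 10 to 956.8 ± 81.9. Crhr2, a receptor of stress peptides, and Agtr1b, a receptor of angiotensin, fell, and so did the lipid receptor Lpar6. In bulk RNA a loss of cells that make a transcript and less of it per cell cannot be told apart.

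The table had been selected on these same libraries, for a change of at least 2-fold (1 on the log2 scale) with a p-value of at most 0.0498 in the authors' test, so each gene in it differs between the groups by construction. A moderated linear model (limma), with p-values adjusted by the Benjamini-Hochberg method (BH) over the 31432 genes the authors had tested, called 11 of the 38 (28.9%) at an adjusted p under 0.05, and 31.1% of all listed genes. Of these, 3 rose, where 11.2% of all listed genes rose, and 8 fell, where 19.8% did. The libraries of the groups did not overlap for any of the 38, as for 99.7% of listed genes. Values were lower in 73.7% of the 38 and 61.5% of listed genes, and higher in 26.3% and 38.5%. The median log2 change was -1.31, beside -1.17 over all listed genes. Since the table was chosen on this contrast, these shares describe the genes and test nothing. Per the authors' deposited table, 29 of the 38 had a false discovery rate under 0.05, beside 70.2% of listed genes. Of the 11 calls, 9 were among those 29, and the other 2, Cnr2 and Ptgfr, had rates of 0.19 and 0.15 in that table. Those 29 also hold genes that limma did not call, among them Ltb4r2 (rate 3.9e-10), Grm4 (1.6e-08), Gpr83 (9.5e-06) and Hrh3 (3e-05). The authors' rate was not under 0.05 for 9 of the 38.

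Leaving out any library left limma 1 residual degree of freedom, and calls fell throughout the table. Without PD replicate 1, 3.83% of all listed genes were called and 2 of the 38, as without PD replicate 2, in both cases Agtr1b and Ptgfr. Without PC replicate 1, 2.07% of all listed genes were called and 1 of the 38, as without PC replicate 2, in both cases Cnr2. These 3 genes had no reads in a group, and where they stayed called, that group was the one with both libraries kept. Its libraries did not differ, so the gene had no spread of its own in the fit. Such calls do not mark these genes as firmer than others in the fits with a library left out. The 8 called genes with reads in both groups each lost their call in these fits. Over all 11 other settings the log2 change of P2rx7 lay between -1.60 and -1.38 and that of P2rx4 between 1.16 and 1.34. That of P2rx3 lay between 1.57 and 1.76, and that of Crhr2 between -2.36 and -2.00. Settings that changed only the filter, the replicate block or the trended prior used the same log2 values. They could not move these sizes and do not show that the sizes are stable. Without the size factors those 8 lost the call too, where 4.02% of all listed genes were called, and without a trended prior limma called 0 of the 38, with 36 at an unadjusted p under 0.05, and 1 of all listed genes.

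**Figure D1:**
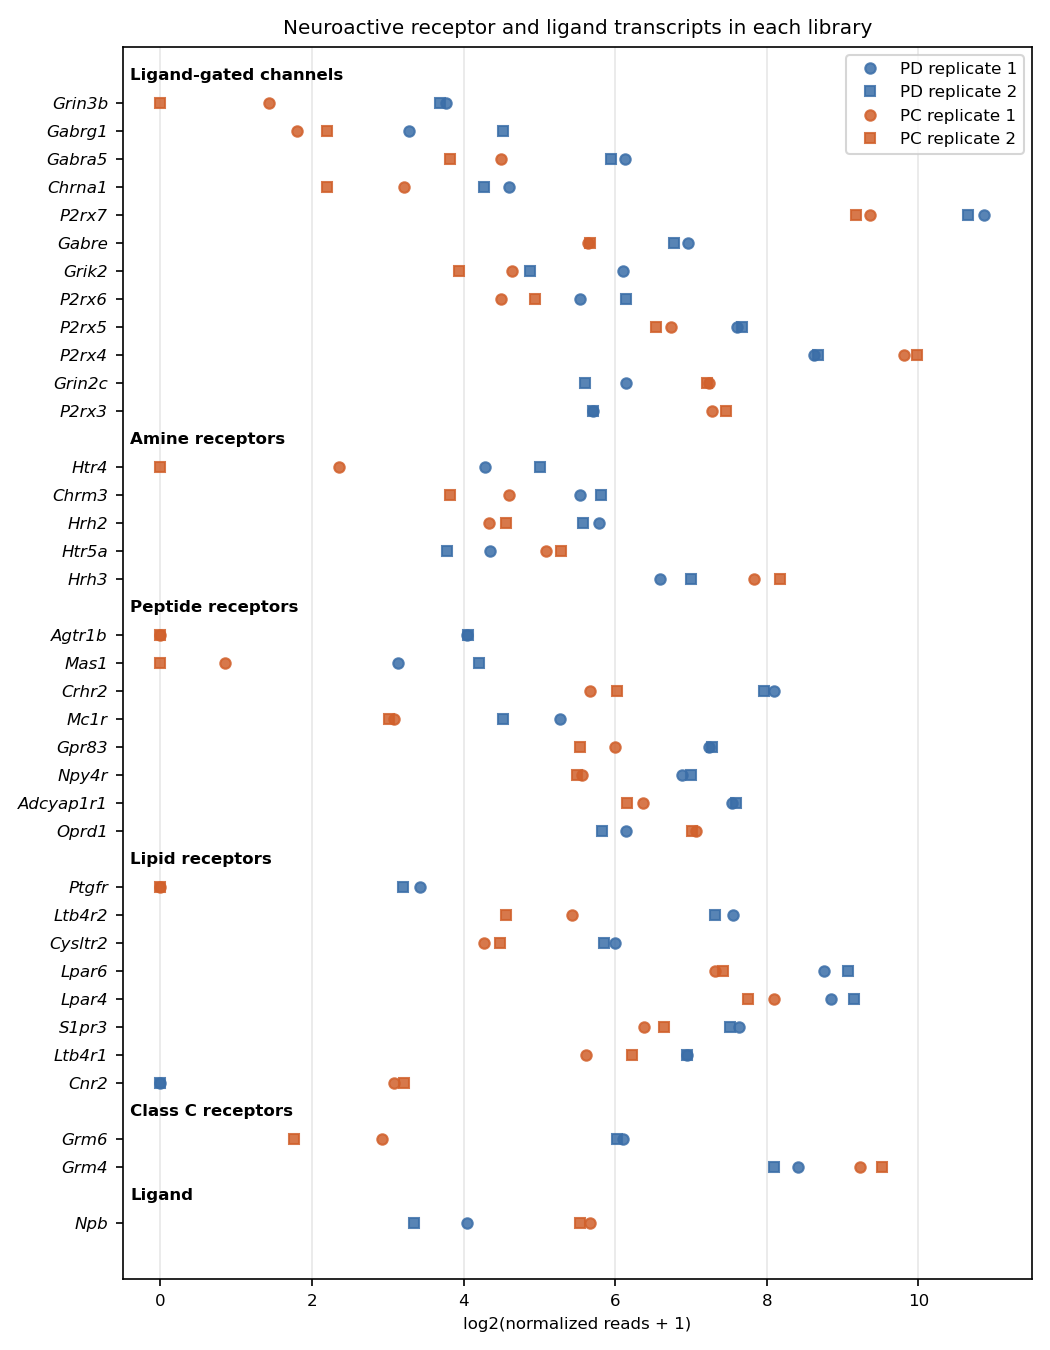
Expression of the 36 genes described, in each library, as log2(normalized reads + 1), by receptor class. Blue marks are the PD and orange marks the PC libraries, circles replicate 1 and squares replicate 2; blue and orange do not overlap in any row, and 9 genes have the orange marks to the right.

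**Figure D2:**
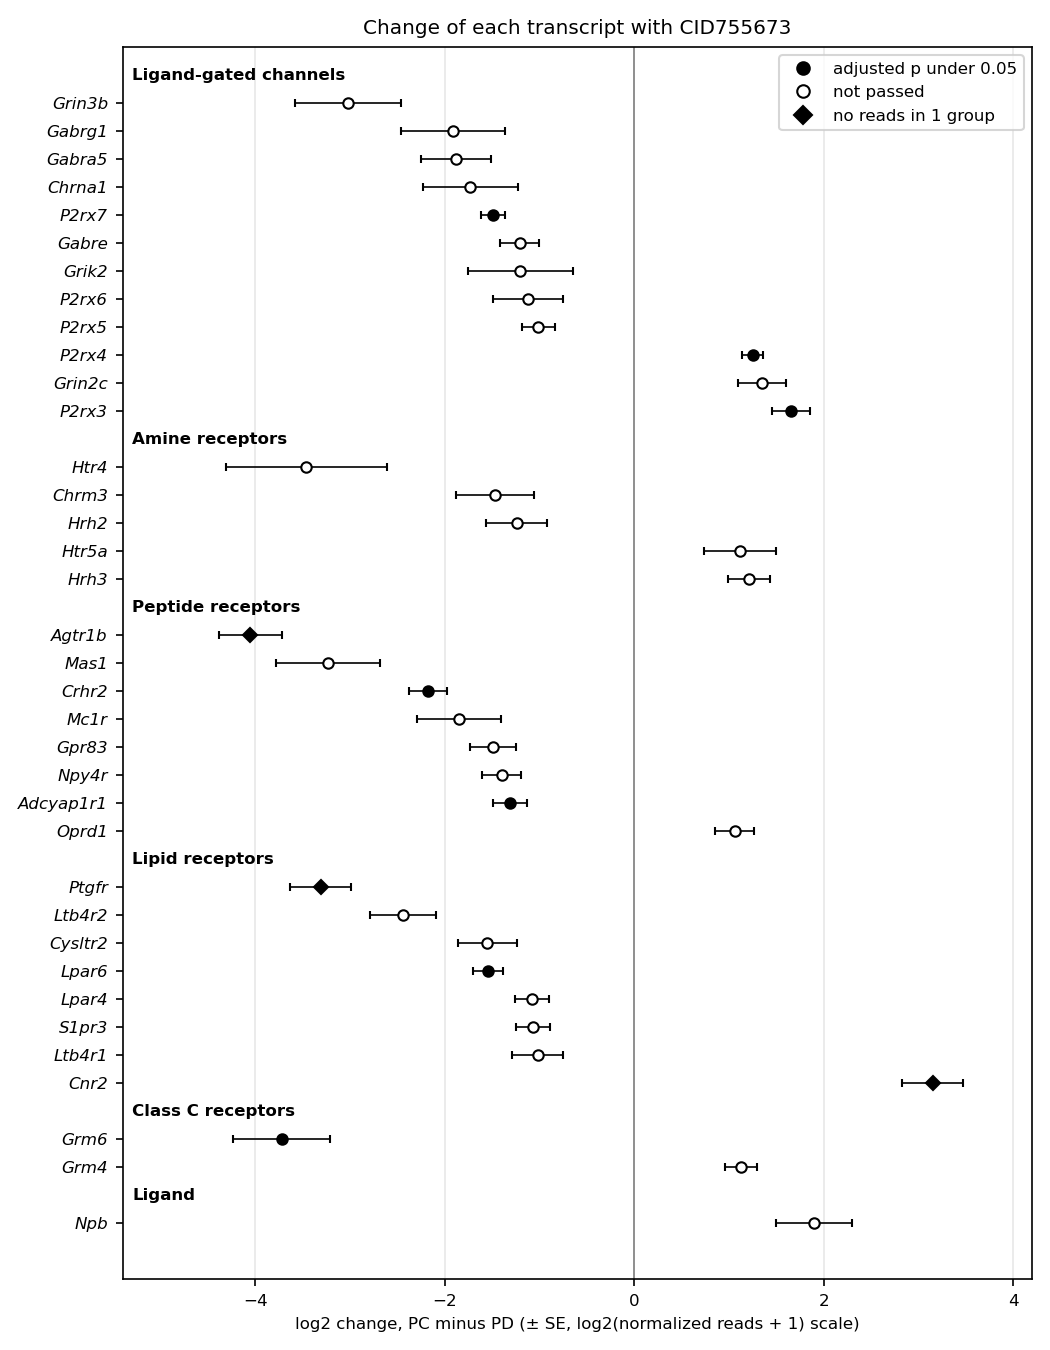
Log2 change of the 36 genes described, PC minus PD, with its standard error from limma; filled marks had an adjusted p under 0.05 and diamonds had no reads in a group. The 10 filled marks range from -4.05 for Agtr1b to 3.15 for Cnr2, both fitted values of genes without reads in a group.

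Normalized reads are read counts divided by a size factor per library. The reads on all listed genes ranged from 433684 to 683777 per library, and the full depth is unknown. Of the 38 genes, 16 had a mean of at least 100 normalized reads over the 4 libraries and 6 stayed below a mean of 20 in both groups. Exons of 13 of the 38 overlap those of another gene in GENCODE M21, for 12 of them on the other strand. These 13 are Gabra5, Grin2c, Grin3b, Grm6, Hrh2, Hrh3, Lpar6, Mc1r, P2rx3, P2rx6, P2rx7, Ptgfr and S1pr3. Mc1r shares 653 bp (17.9% of its exons) and Hrh3 349 bp (11.1%). P2rx7 shares 119 bp (1.99%) with Mir8115 on the same strand. With the strand setting of the counting not given in the sources used here, reads of either gene in such a stretch cannot be told apart.

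Of the 12 listed channel subunits 5 were ATP-gated P2X channels. P2rx7, a channel of macrophages that opens at high ATP, had 1871.5 and 1608.4 normalized reads in PD, against 657.8 and 578.1 in PC. Both PC values were far below both PD values, and the log2 change was -1.49 (SE 0.13, limma, BH-adjusted p = 0.014), the mean being 2.82-fold lower. P2rx4, a widely expressed and calcium-permeable P2X channel, had 393.7 and 407.8 in PD and 898.9 and 1014.7 in PC. It rose by 1.25 (SE 0.11, limma, BH-adjusted p = 0.015), or 2.39-fold. Within a library, where size factors cancel, there were 4.75 and 3.94 reads of P2rx7 for each read of P2rx4 in PD, and 0.732 and 0.57 in PC. Per length of exons these ratios were 5.59 and 4.64 in PD and 0.861 and 0.67 in PC, so that the order of both genes was reversed between the groups in every library. Both genes were selected for a change of at least 2-fold and had opposite directions. Their ratio therefore had to shift, and the shift adds no support.

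P2rx3, a channel known from pain-sensing neurons, had 51.4 and 51.3 normalized reads in PD and 154.1 and 176.1 in PC. It rose by 1.66 (SE 0.20, limma, BH-adjusted p = 0.028), a 3.21-fold ratio, and its exons share 51 bp with those of Ssrp1 on the other strand. P2rx5, a P2X channel with 194.9 and 203.5 in PD and 106.0 and 91.6 in PC, missed the threshold (limma, BH-adjusted p = 0.085). P2rx6, a subunit that works poorly without partners, had 45.6 and 69.7 in PD and 21.5 and 29.7 in PC, and its difference did not pass either (limma, BH-adjusted p = 0.62). Its exons share 554 bp with Slc7a4. The family thus held 2 risen genes, 1 fallen gene and 2 genes with lower values that did not pass, where 11.2% of all listed genes rose and 19.8% fell. Summed over the 5 genes, normalized reads were 2557.1 and 2340.7 in PD and 1838.4 and 1890.3 in PC.

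**Figure D3:**
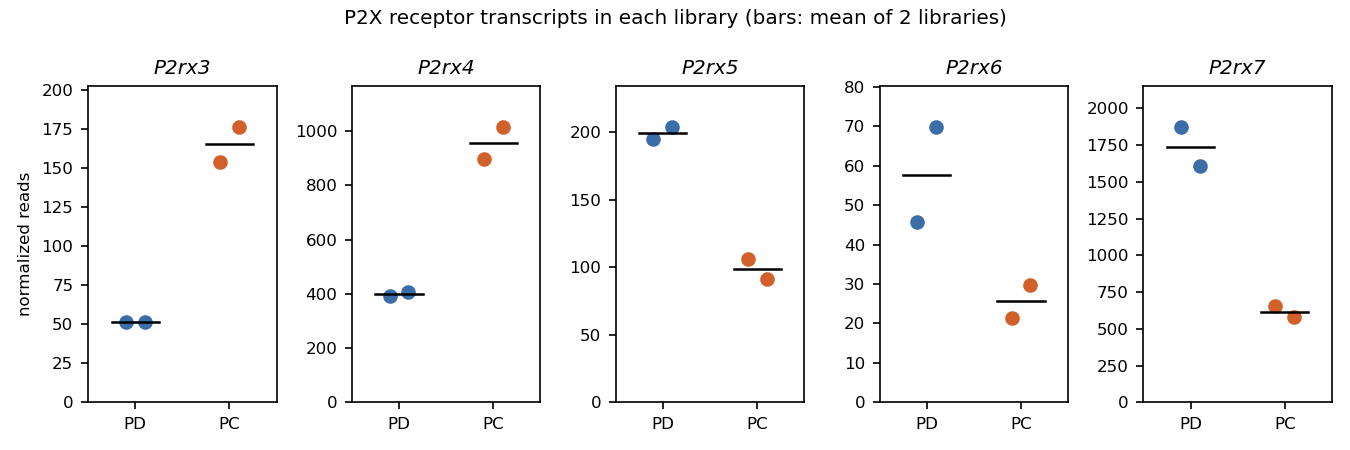
Normalized reads of the 5 P2X genes in each library, on linear axes that start at 0 and differ between panels; points are libraries and bars the means of 2 libraries. P2rx3 and P2rx4 lie higher in PC, and P2rx5, P2rx6 and P2rx7 higher in PD.

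None of the 7 other channel subunits passed the test. The GABA-A receptor is a chloride channel of inhibitory synapses, and its 3 listed subunits all had lower values in PC. Gabre had 123.2 and 109.1 normalized reads in PD and 48.9 and 50 in PC (limma, BH-adjusted p = 0.099). Gabra5 had 68.8 and 60.5 in PD against 21.5 and 13.1 in PC. Gabrg1 was scarce, with 8.7 and 22.0 against 2.5 and 3.6. Among ionotropic glutamate receptors the direction differed. Grin2c, a subunit of NMDA receptors, had 69.8 and 47.7 in PD and 150 and 147.5 in PC, a log2 change of 1.35 (SE 0.25, limma, BH-adjusted p = 0.12). The kainate receptor subunit Grik2 had 67.9 and 28.4 in PD and 24.0 and 14.3 in PC. Its PD libraries differed from each other more than the lower of them differed from PC. Grin3b, a glycine-binding NMDA receptor subunit, had 12.6 and 11.9 in PD and 1.7 and 0.0 in PC. Only 2 reads fell on Grin3b in both PC libraries together, and the ratio of PD to PC was 12.5, with an exact 95% counting interval of 3.14 to 109.0 that covers counting error only. Its exons share 1059 bp, 32.1% of their length, with Tmem259 on the other strand.

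Chrna1, the muscle subunit of the nicotinic acetylcholine receptor, had 23.3 and 18.3 normalized reads in PD and 8.3 and 3.6 in PC, and missed the threshold (limma, BH-adjusted p = 0.43). Of 8 skeletal and cardiac muscle markers 3 were listed, Myh6, Myh7 and Tnnt2, all with lower values in PC. Their summed normalized reads were 811.6 and 626.0 in PD and 304.1 and 293.8 in PC, and their part in the Chrna1 values was not tested.

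None of the 5 amine receptors described here passed the test in limma. The 2 listed histamine receptors had opposite directions. Hrh2, the Gs-coupled receptor of gastric acid secretion, had 54.3 and 46.7 in PD and 19.1 and 22.6 in PC. Hrh3, the Gi-coupled autoreceptor of histamine neurons, had 95 and 127.4 in PD and 227.8 and 287.9 in PC (limma, BH-adjusted p = 0.11). Within a library there were 1.75 and 2.73 reads of Hrh3 for each read of Hrh2 in PD and 12.0 and 12.7 in PC. Neither histamine receptor passed. Listed genes were selected for a change of at least 2-fold, so such a ratio shifts for any pair with opposite directions and adds no support.

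The serotonin receptors also had opposite directions. Htr4, a Gs-coupled receptor of gut motility, had 18.4 and 31.2 normalized reads in PD and 4.1 and 0.0 in PC. Htr5a, a Gi-coupled receptor of the brain, had 19.4 and 12.8 in PD and 33.1 and 38.1 in PC. Chrm3, the muscarinic acetylcholine receptor of glands and smooth muscle, had 45.6 and 55.0 in PD and 23.2 and 13.1 in PC. All 3 had few reads, and none passed (limma, BH-adjusted p = 0.28, 0.7 and 0.39).

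Of 8 peptide receptors 3 fell and 0 rose, where 19.8% of all listed genes fell and 11.2% rose. Crhr2, a receptor of the corticotropin-releasing hormone and urocortin family, had 272.5 and 247.5 normalized reads in PD and 49.7 and 64.2 in PC. It fell by 2.18 in log2 units (SE 0.20, limma, BH-adjusted p = 0.015), a 4.56-fold ratio. Adcyap1r1, the receptor of the neuropeptide PACAP, lies 319.0 kb from Crhr2 on chromosome 6 and had 185.2 and 192.5 in PD and 81.2 and 70.2 in PC. It fell by 1.31 (SE 0.18, limma, BH-adjusted p = 0.044). Agtr1b, the rodent-specific copy of the angiotensin II receptor that raises blood pressure, had 15.5 and 15.6 in PD and 0 reads in either PC library, at least 5.14-fold lower when each PC library is set to 3 reads (limma, BH-adjusted p = 0.014). Its level in PD rests on 33 reads. Agtr1b also has a close paralog, and reads shared between the copies make its counts uncertain.

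The other 5 peptide receptors did not pass. Mas1, a receptor of a shorter angiotensin peptide, had 7.8 and 17.4 normalized reads in PD and 0.8 and 0.0 in PC. A single read fell on Mas1 in PC, and the ratio of PD to PC was 26.0 with an exact 95% counting interval of 4.29 to 1070.0. Gpr83, for which several peptide ligands have been proposed, had 149.3 and 154.0 in PD and 63.0 and 45.2 in PC (limma, BH-adjusted p = 0.075). Npy4r, the receptor of pancreatic polypeptide, had 116.4 and 126.5 in PD and 46.4 and 44.0 in PC (limma, BH-adjusted p = 0.062). Both had a gap of over 2-fold between groups, with replicates close together except those of Gpr83 in PC. Mc1r, the melanocortin receptor of pigment cells, had 37.8 and 22.0 in PD and 7.5 and 7.1 in PC. Oprd1, the delta opioid receptor, which binds enkephalins, was the 1 peptide receptor with higher values, 69.8 and 55.9 in PD and 133.4 and 128.5 in PC (limma, BH-adjusted p = 0.15).

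Of 8 receptors for lipid ligands 2 fell and 1 rose, beside 19.8% and 11.2% of all listed genes. Lpar6, a lysophosphatidic acid receptor known for its role in hair growth, had 431.5 and 537.1 normalized reads in PD and 159.1 and 171.3 in PC. It fell by 1.54 in log2 units (SE 0.16, limma, BH-adjusted p = 0.019), a 2.93-fold ratio, and its exons share 408 bp with Rb1 on the other strand. Lpar4, a second receptor of the same lipid, had 461.6 and 567.3 in PD and 271.7 and 215.3 in PC and missed the threshold (limma, BH-adjusted p = 0.084). S1pr3, a sphingosine 1-phosphate receptor, had 196.8 and 182.4 in PD and 82.0 and 98.7 in PC (limma, BH-adjusted p = 0.091). The lysophospholipid receptors thus all had lower values, and Lpar6 alone passed.

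Leukotrienes are inflammatory lipids made by white blood cells, and all 3 of their listed receptors had lower values without passing in limma. Ltb4r2, a leukotriene B4 receptor, had 187.1 and 158.6 normalized reads in PD and 42.3 and 22.6 in PC, a 5.33-fold ratio (limma, BH-adjusted p = 0.054). Ltb4r1 starts 0.8 kb downstream of the end of Ltb4r2 on the same strand of chromosome 14 (GENCODE M21, GRCm38) and had 122.2 and 121.9 in PD and 48.1 and 73.8 in PC. Cysltr2, a receptor of cysteinyl leukotrienes, had 63.0 and 56.8 in PD and 18.2 and 21.4 in PC. Per the authors' deposited table, the false discovery rates were 3.9e-10 for Ltb4r2, 0.011 for Ltb4r1 and 0.0024 for Cysltr2. The division of reads between the adjoining Ltb4r1 and Ltb4r2 depends on the authors' annotation and is uncertain.

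The remaining lipid receptors were near the limit of detection. Ptgfr, the prostaglandin F receptor of uterus and eye, had 9.7 and 8.2 normalized reads in PD and 0 reads in either PC library, at least 2.96-fold lower (limma, BH-adjusted p = 0.017). Cnr2, the cannabinoid receptor of immune cells, had 0 reads in both PD libraries and 7.5 and 8.3 in PC, at least 2.79-fold higher (limma, BH-adjusted p = 0.019). The calls rest on 19 reads of Ptgfr and 16 of Cnr2 in all.

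Class C receptors bind their ligands with a large extracellular lobe. Grm6, the glutamate receptor of retinal bipolar cells, had 67.9 and 64.2 normalized reads in PD and 6.6 and 2.4 in PC. It fell by 3.72 in log2 units (SE 0.51, limma, BH-adjusted p = 0.047), a 14.7-fold ratio with 10 reads in PC, and its exons share 599 bp with the antisense gene Gm12660. Grm4, a presynaptic glutamate receptor that lowers transmitter release, had 339.4 and 271.3 in PD and 602.3 and 730.4 in PC (log2 change 1.13, SE 0.17, limma, BH-adjusted p = 0.061). Grm4 thus had higher values while Grm6 fell, and within a library the reads of Grm4 per read of Grm6 went from 5.0 and 4.23 in PD to 90.9 and 307.0 in PC, the last resting on 2 reads of Grm6.

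The ligand Npb, the precursor of neuropeptide B, had 15.5 and 9.2 normalized reads in PD and 49.7 and 45.2 in PC. Its log2 change was 1.90 (SE 0.40, limma, BH-adjusted p = 0.18), and it did not pass.

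Ordered by the G protein that each receptor is best known to use, a grouping made after the values were seen and therefore given without a test, the 23 G protein-coupled receptors described here did not share 1 direction. All 5 Gs-coupled receptors among them (Adcyap1r1, Crhr2, Hrh2, Htr4 and Mc1r) had lower values in PC, with a median log2 change of -1.85, and 2 of them fell. All 4 Gq-coupled receptors and all 7 receptors that use several G proteins also had lower values, with medians of -2.43 and -1.49, and 2 and 1 of them fell. The Gq group includes Agtr1b and Ptgfr, which had 0 reads in PC, so their log2 changes depend on the 1 added before the log. Lower values were the common direction, in 73.7% of the 38 genes and 61.5% of all listed genes. Over all listed genes the median was -1.17, and 19.8% fell and 11.2% rose. Of 7 Gi-coupled receptors 5 had higher values (Cnr2, Grm4, Hrh3, Htr5a and Oprd1) and 2 lower (Grm6 and Npy4r), with a median of 1.12. Among the 7, Cnr2 rose and Grm6 fell, and the other 5 did not pass. All 5 described receptors with higher values were thus in the Gi group as assigned here, although 4 of these did not pass and the call for Cnr2 rests on 16 reads. The 7 receptors that use several G proteins (Gpr83, Lpar4, Lpar6, Ltb4r1, Ltb4r2, Mas1 and S1pr3) were not split by whether Gi is among them. The division of the Gi group into 5 higher and 2 lower therefore depends on this assignment.

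**Figure D4:**
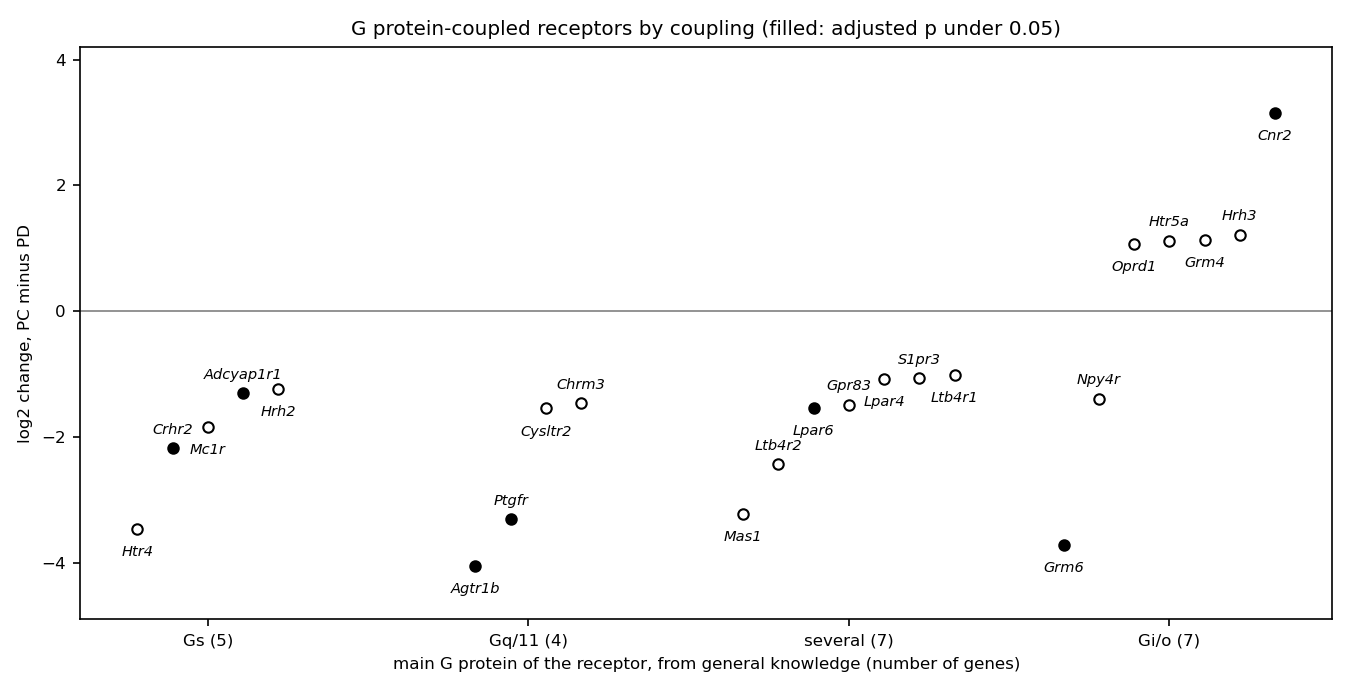
Log2 change, PC minus PD, of the 23 described G protein-coupled receptors by their best-known G protein, 1 point per gene; filled points had an adjusted p under 0.05 in limma. All points above 0 are in the Gi/o column, which holds 5 of them and 2 below 0.

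To compare levels between genes, normalized reads were divided by the length of each gene's merged exons in GENCODE M21, which may differ from the annotation the authors used. Among the genes described, P2rx7 had the highest level per kb in PD with 291.5 (313.5 and 269.4). Lpar4 followed with 121.4, its libraries apart from both neighbours, then Lpar6 with 89.7 and Ltb4r1 with 87.5, whose libraries overlapped, and P2rx5 with 83.2. In PC the order began with P2rx4 at 136.2 (128.0 and 144.4), whose libraries lay above those of the next, Grm4 at 111.5 (100.8 and 122.2). P2rx7 followed at 103.5 (110.2 and 96.8), overlapping Grm4. Npb reached 87.6 and Hrh3 82.0 in PC, from 22.8 and 35.3 in PD. Crhr2 went from 50.8 to 11.1.

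**Figure D5:**
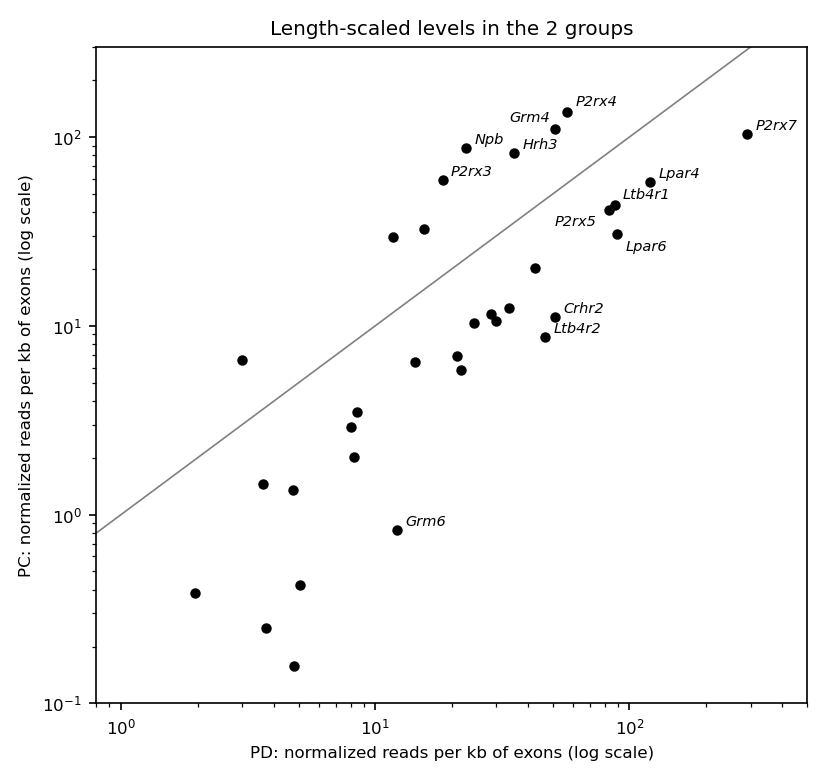
Mean normalized reads per kb of exons in PD (horizontal) and PC (vertical), both on log axes, for the 33 described genes with reads in both groups; the line marks equal levels. The plot shows 8 genes above and 25 below the line, with P2rx4, Grm4, Hrh3 and Npb among the highest in PC.

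Among the 38 genes, 15 also carry KEGG's calcium signalling pathway in the table, of which 2 rose (P2rx3 and P2rx4) and 4 fell, among them Agtr1b, P2rx7 and Ptgfr. Of 9 further listed genes of that pathway 1 rose and 3 fell, and the medians were -1.31 and -1.20. Over all listed genes 11.2% rose and 19.8% fell, with a median of -1.17. Within 200 kb of each other (GENCODE M21, GRCm38), the pairs Ltb4r2 and Ltb4r1, and Cysltr2 and Lpar6, had lower values for both genes, whereas P2rx7 and P2rx4 had opposite directions.

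Genes that act after the receptors were mostly outside the table and are then not analysed here. Of 55 genes of G proteins and their effectors 4 were listed, 2 with higher values (Prkar2b and Gnat2) and 2 with lower (Gng13 and Plcb2), and 0 passed in limma. Of 27 genes of receptor desensitisation and G protein shut-off 4 were listed and 1 fell. Arrb1, an arrestin that uncouples receptors from G proteins, had 1372.1 and 1179.5 normalized reads in PD and 456.5 and 509.1 in PC, a log2 change of -1.40 (SE 0.12, limma, BH-adjusted p = 0.015). The G protein shut-off genes Rgs5 and Rgs8 had lower and Rgs7 higher values, and none of the 3 passed.

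Of 21 genes of neuropeptide processing 2 were listed, and both passed. Vgf, a granin-like peptide precursor, fell from 549.8 and 467.4 normalized reads in PD to 148.3 and 127.3 in PC, a log2 change of -1.88 (SE 0.16). Qpct, the enzyme that forms the pyroglutamate cap of peptide hormones, rose from 159.0 and 164.1 to 351.3 and 331.9, a log2 change of 1.08 (SE 0.13). Of 37 genes of transmitter synthesis, uptake and release 5 were listed, of which 1 rose and 0 fell. Gad2, an enzyme that makes GABA, rose from 63.0 and 72.4 to 215.4 and 236.7 (log2 change 1.73, SE 0.18), whereas the values of the 3 GABA-A subunits were lower. Th, the first enzyme of dopamine synthesis, the serotonin transporter Slc6a4, and the GABA and betaine carriers Slc6a12 and Slc6a13 had lower values that did not pass. The calls of these genes used limma with Benjamini-Hochberg adjustment, at adjusted p values of 0.014 for Vgf, 0.03 for Qpct and 0.02 for Gad2.

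Markers of the cells these receptors are known from were few in the table. Of 11 neuronal markers the listed one was Nefm, with 68.8 and 55.9 normalized reads in PD and 22.4 and 33.3 in PC, and of 8 glial markers Sox10, with 89.2 and 48.6 against 21.5 and 23.8. Neither passed in limma, and of 6 neural progenitor and 8 embryonic stem cell markers 0 were listed, so the labelled cell type could not be checked on them. Of 5 endothelial markers Tek and Kdr were listed, with sums of 3342.5 and 3526.6 in PD and 1498.7 and 1334.7 in PC, and of 5 fibroblast markers Col3a1, with 89.2 and 113.6 against 38.9 and 48.8. The 2 listed of 7 extra-embryonic endoderm markers, Gata6 and Sox17, both higher in PC, summed to 221.1 and 209.9 in PD and 466.4 and 511.5 in PC. Of these markers Myh7 and Tek fell and Gata6 rose, and the others did not pass. No listed marker was at 0 in a group, and the part of such cells in the receptor values was not tested.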

How the data were processed

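RNA of 46C cells was sequenced in 2 PD and 2 PC libraries, grouped by the treatment in the labels. The authors deposited 1 table of log2 values per library. Undoing the log and subtracting 1 gave whole multiples of a step per library for 100.0% of values, within 0.001 reads, so the deposited log2 values are log2(reads / size factor + 1), with size factors of 1.0313 and 1.0911 (PD) and 1.207 and 0.8406 (PC). The p-values and false discovery rates in it are the authors' own, per the file headers. Per the submitters' processing notes, Bowtie 0.12.2 and mm9 were used, with no role given; counting, annotation and test remain not given in the sources used here.

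limma 3.58.1 (R 4.3.3) was fitted to log2(value + 1) of all 1593 listed genes with a mean of at least 1 normalized read, which removed none, with a trended prior and 2 residual degrees of freedom. Adjustment ran over the 31432 genes tested by the authors, a number taken from the ratio of rate to p; unlisted genes were given larger p-values. That leans towards fewer calls, whereas a spread estimated on genes selected for small p leans towards more. The fit was also run on simulated data without such a selection, so that run cannot show how the selection affects the calls. Libraries of a group were not copies (chi-square per degree of freedom 7.03 over 1514 genes in PD, 6.57 over 1437 in PC). Genes at 0 in a group were set against 3 reads per library, which covers counting error only. Of the 38 genes 36 are named and shown, and 2 are counted but not reported here; other genes come from lists. Receptor classes and G protein coupling were assigned by hand from general knowledge. The members and lists were chosen with earlier results of these data known. Promoters are RefSeq's, nearest the GENCODE M21 gene start.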

Additional observations from a re-analysis of the deposited data

How the results depend on the processing

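All 38 genes kept their direction in each of the 11 other settings that fitted them, which non-overlapping groups nearly fix. Against 11 calls, limma called 8 with a pseudocount of 0.1 (26.2% of all listed genes) and 13 with a mean of at least 10 normalized reads (32 genes fitted; 40.3% of all fitted), and the same 11 without a filter. limma voom on the recovered reads called 17, including the 11, and 41.5% of all listed genes. With the replicate block limma called 30 of the 38, as it called 1176 of all listed genes; the replicate numbers share no source in the labels, and deviations of same-numbered libraries were uncorrelated across genes (Pearson's r -5.75e-05, a description). Without a trended prior limma called 0 of the 38 (1 of all listed genes), and 36 had an unadjusted p under 0.05. Without the size factors it called 3 (4.02% of all), and adjusted over the listed genes alone 37, beside 1536 of all listed genes. Leaving out a library gave 1 to 2 calls (2.07% to 3.83% of all) at 1 residual degree of freedom, with the single library left in a group taken to have the spread of the other. The median log2 change of -1.31 was -1.38 without size factors and -1.44 to -1.24 with a library left out. The cause of the other differences was not tested. Genes with under 20 reads in a group limit what their values can show.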

Other observations

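Other listed genes carry the GO function of a G protein-coupled receptor without the neuroactive pathway. There were 21, of which 10 had higher and 11 lower values in PC, and 3 rose and 2 fell in limma with Benjamini-Hochberg adjustment. Over all listed genes 11.2% rose and 19.8% fell. Olfactory and vomeronasal receptors made up 11 of them, 3 with higher and 8 with lower values, all with a mean under 100 normalized reads. Among the other 10, 7 had higher values, and the 5 named here were chosen after their values were seen. Adgra2, an adhesion receptor that acts with Wnt ligands in brain vessels, rose from 449.9 and 547.1 normalized reads in PD to 1403.4 and 1378.7 in PC (log2 change 1.49, SE 0.13). Adgrf5, an adhesion receptor of lung epithelium, fell from 209.5 and 201.6 to 95.3 and 94.0 (log2 change -1.11, SE 0.15). Gpr61 and Gprc5d, both orphans, had 0 reads in PD and 10.8 and 13.1, and 14.1 and 21.4, in PC. Gpr61 and Gpr12, which are known to signal through Gs, had higher values (8.7 and 5.5 against 31.5 and 17.8 for Gpr12, which did not pass), so the lower values of the Gs-coupled receptors described within the pathway did not extend to every listed receptor of that coupling.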
